A study of Homo sapiens with 7 samples.

Results

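Inflammasomes are protein platforms that activate an inflammatory protease, and 10 of their genes were followed here out of 60666 gene identifiers in a table of raw read counts. The 10 were taken by name: the sensors NLRP3, NLRP1, NLRC4, AIM2 and MEFV, the adaptor PYCARD, the protease CASP1, the cytokines IL1B and IL18, and the pore-forming GSDMD. Transcripts were read from bulk RNA sequencing of 7 libraries, all labelled RPMI 8226, a human myeloma line, that is, a line from a cancer of antibody-secreting plasma cells. The labels give 2 unedited libraries (WT), 2 with HDAC6 knocked out (KO) and 3 with a 2-residue change in the zinc finger by which HDAC6 binds ubiquitin (RY). CRISPR-Cas9 made both edited lines, and the shared growth protocol names no other allele or agent. Each edit is represented by a single line, and the labels do not say whether it is 1 clone or whether replicates are separate cultures. An effect of the edit and a difference between lines for another reason cannot be told apart. The p-values measure only the scatter among these libraries, which can be technical in origin. All 10 genes had reads in each group and passed the filter on low counts. NLRC4 and MEFV would not have passed it with the WT and KO libraries alone, and passed through the RY libraries.

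A sensor that meets its trigger gathers PYCARD, also called ASC, which draws in caspase-1, the product of CASP1. Caspase-1 then cuts the precursors of IL-1 beta and IL-18 and opens GSDMD, whose released fragment forms pores in the plasma membrane and ends in a lytic death called pyroptosis. NLRP3 and IL1B are best known from monocytes, macrophages and neutrophils, where their transcription is raised by a priming signal before assembly, whereas AIM2, a sensor of cytosolic DNA, is an interferon-inducible gene. In mouse macrophages HDAC6, a cytoplasmic deacetylase that also binds ubiquitin, carries NLRP3 and the MEFV product pyrin along microtubules toward the microtubule-organizing centre. The comparisons address how transcript levels of this machinery differ with the knockout and with the 2-residue change.

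RefSeq promoter windows (GRCh38.p14) were matched for 6 of the 10 genes, NLRP3, NLRC4, AIM2, MEFV, IL1B and PYCARD. Those of NLRP3, IL1B and AIM2 are shown because the first pair was high in the RY libraries and low in KO, whereas AIM2 was highest in WT. Each runs 5′ to 3′ on the gene's strand from 250 bases before the annotated start to 50 after it, and capitals mark the motif matches described next.
NLRP3 promoter, chr1:247415923-247416222, plus strand: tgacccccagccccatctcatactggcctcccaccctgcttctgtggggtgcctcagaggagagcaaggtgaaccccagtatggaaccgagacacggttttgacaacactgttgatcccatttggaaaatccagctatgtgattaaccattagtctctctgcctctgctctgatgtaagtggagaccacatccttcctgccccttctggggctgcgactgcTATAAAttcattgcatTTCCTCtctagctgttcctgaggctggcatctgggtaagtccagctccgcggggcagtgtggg
IL1B promoter, chr2:112836730-112837029, minus strand: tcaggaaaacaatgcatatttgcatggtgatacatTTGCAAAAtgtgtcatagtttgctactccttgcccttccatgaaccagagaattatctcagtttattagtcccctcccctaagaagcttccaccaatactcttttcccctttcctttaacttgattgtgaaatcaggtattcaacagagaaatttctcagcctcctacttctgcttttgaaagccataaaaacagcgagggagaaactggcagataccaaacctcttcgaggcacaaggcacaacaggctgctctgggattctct
AIM2 promoter, chr1:159076717-159077016, minus strand: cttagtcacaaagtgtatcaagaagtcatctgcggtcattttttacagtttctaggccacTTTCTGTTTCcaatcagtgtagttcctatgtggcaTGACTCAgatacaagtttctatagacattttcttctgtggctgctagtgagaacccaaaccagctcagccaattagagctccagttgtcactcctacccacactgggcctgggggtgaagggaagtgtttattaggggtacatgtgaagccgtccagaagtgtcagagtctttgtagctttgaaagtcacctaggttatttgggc
The letters searched, on both strands, were GAGGAA for the core of a PU.1 site, TTGCNNAA for C/EBP, the interferon-stimulated response element by its 10-base consensus, TGANTCA for AP-1 and TATAAA for a TATA box. PU.1 and C/EBP factors are regulators of myeloid genes. In the NLRP3 window the TATA letters lay at bases -29 to -24 and the PU.1 letters, on the other strand, at -13 to -8. The IL1B window held a C/EBP match at -215 to -208. The AIM2 window held the interferon element on the other strand at -190 to -181 and an AP-1 match at -155 to -149, and none of these matches overlapped. The window of PYCARD, a gene called in no comparison, held the PU.1 letters at -30 to -25 and, on the other strand, at 10 to 15. The MEFV window held none of the 5 motifs. Of 3 NLRC4 windows, the first held C/EBP, PU.1 and TATA letters, the second PU.1 and TATA letters and the third none. The first and second windows overlap, and their PU.1 and TATA letters are the same bases. Over all 35116 RefSeq windows of this length, 27.9% held the PU.1 letters, 10.5% the C/EBP letters, 3.57% the interferon element, 7.71% the AP-1 letters and 11.5% the TATA letters. These are matches of letters and do not show binding.

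The libraries held 31368968 to 42813888 counted reads, and levels are given as CPM, that is, reads relative to the library size after TMM scaling, which corrects for library composition. HDAC6 itself stood at 67.2 ± 14.2 CPM (SD, n = 2) in WT, 15.9 ± 4.38 (n = 2) in KO and 99.0 ± 10.2 (n = 3) in RY. Its fall in KO was 2.08 on the log2 scale (SE 0.21, edgeR quasi-likelihood adjusted p = 0.000189). The libraries labelled RY went against their labelled cell type. The summed level of 12 plasma cell markers was 7951 to 9169 CPM in WT, 5122 to 5994 in KO and 367 to 402 in RY, and TNFRSF17, the receptor BCMA, had 0 reads in all 3 RY libraries. The summed level of 18 myeloid markers was 179 to 219 CPM in WT, 87.8 to 92.4 in KO and 1480 to 1654 in RY, led by the granule enzyme MPO at a mean of 980. Most of the KO sum was CD33 (54.9 CPM) and SPI1 (30.9), which stood at 68.0 and 49.55 in WT. Of 16 tested, 12 rose and 1 fell in RY against WT, beside 23.9% and 25.4% of all genes. The 12 include ELANE, AZU1, CTSG, LYZ, CSF1R, FCGR1A and CEBPE, which passed the filter on low counts only through the RY libraries, where they were high. These held 0 to 1.09 CPM in the WT libraries and averaged 0 to 0.0300 in KO. ELANE, PRTN3, LYZ, CD14, CSF1R and S100A9 averaged only 0.115 to 0.843 CPM in RY. The summed level of 10 T cell markers was 236 to 248 CPM in RY, almost all CD4, against 12.5 to 24.9 in WT and 4.95 to 6.30 in KO. The summed level of 10 B cell markers was 209 to 233 CPM in WT, 149 to 173 in KO and 31.5 to 34.6 in RY. Of the 9 tested, 5 rose and 4 fell in RY against WT, beside 23.9% and 25.4% of all genes tested. The 5 include CD79B and BANK1, which also passed the filter only through the RY libraries. Among the myeloid markers S100A8 had 0 reads in all 7 libraries, and CTSG, LYZ, FCGR1A and CEBPE had 0 in both KO libraries. Every statement on RY below is about these libraries, and what they hold was not tested.

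NLRP3, the sensor of potassium efflux and membrane damage, was highest in the libraries labelled RY and lowest in KO. It stood at 13.4, 12.2 and 14.5 CPM in RY replicates 1, 2 and 3, at 0.805 and 0.869 in WT replicates 1 and 2, and at 0.141 and 0.0900 in KO replicates 1 and 2. No group overlapped another, and the KO values rested on 5 and 3 reads. NLRP3 was 15.8-fold higher in RY than in WT (log2 3.99, SE 0.20, adjusted p = 1.90e-07). It was 7.23-fold lower in KO than in WT (log2 -2.82, SE 0.47, adjusted p = 0.00318). Against KO, the RY level was 114-fold higher (log2 6.80, SE 0.29, adjusted p = 5.52e-08). The gene lies on chromosome 1 from 247416156 to 247449108, plus strand, in GENCODE release 29 on GRCh38.

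NLRP1, a sensor of viral proteases and of inhibition of the peptidases DPP8 and DPP9, was low in the RY libraries alone. It stood at 84.6 and 86.6 CPM in WT and at 88.6 and 76.2 in KO, and the ranges of these groups overlapped. In the RY libraries it stood at 0.575, 0.722 and 0.544 CPM. NLRP1 was 138-fold lower in RY than in WT (log2 -7.10, SE 0.14, adjusted p = 8.24e-10) and 133-fold lower than in KO (adjusted p = 7.99e-10). Its KO to WT difference was -0.05 on the log2 scale (SE 0.11, adjusted p = 0.821). The gene lies on chromosome 17, from 5499427 to 5619424 on the minus strand.

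AIM2 was highest in WT, and fell in both edited lines. WT replicates 1 and 2 held 10.1 and 18.1 CPM, KO replicates 1.18 and 1.200, and RY replicates 0.275, 0.120 and 0.212. The 3 groups did not overlap, and the WT libraries differed 1.80-fold. AIM2 was 12.04-fold lower in KO than in WT (log2 -3.57, SE 0.34, adjusted p = 0.000149), and 71.4-fold lower in RY than in WT (log2 -6.12, SE 0.39, adjusted p = 9.03e-07). RY was also 5.93-fold lower than KO (log2 -2.55, SE 0.58, adjusted p = 0.00329). Interferon-stimulated genes fell with AIM2 in KO: 15 of 16 on a list were called lower in KO against WT, beside 7.21% of all genes. In RY against WT 11 were lower and 1 higher, beside 25.4% and 23.9% of all genes. In RY against KO 7 were lower and 4 higher, beside 25.9% and 24.2%. The summed level of the 16 was 2848 and 1905 CPM in WT, 598 to 629 in KO and 543 to 558 in RY. Between the WT libraries AIM2 and this sum stood in opposite order, and the sum's part in the AIM2 difference was not tested. AIM2 lies on chromosome 1 from 159062484 to 159147096, minus strand.

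MEFV encodes pyrin, a sensor of bacterial toxins that inactivate RHOA. It stood at 1.67, 1.68 and 1.21 CPM in RY, at 0.111 and 0.298 in WT, and at 0.0281 and 0.0300 in KO, where each library held 1 read. The groups did not overlap. MEFV was 7.36-fold higher in RY than in WT (log2 2.86, SE 0.37, adjusted p = 4.71e-05), and the log2 difference became 3.75 without WT replicate 2. Against KO the ratio was 53.2, with a 95% counting interval of 14.5 to 443. The KO to WT difference of -2.72 (SE 0.97) missed the threshold (adjusted p = 0.0901), though without WT replicate 1 it passed (log2 -3.22, adjusted p = 0.0452). Without WT replicate 2 it was -1.82 (adjusted p = 0.420). MEFV lies on chromosome 16 from 3242028 to 3256627, minus strand.

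NLRC4, which is switched on by NAIP proteins bound to flagellin, had few reads in every WT and KO library. WT libraries held 0.0832 and 0.149 CPM, KO libraries 0.197 and 0.0900, and RY libraries 0.825, 0.529 and 0.665. WT and KO overlapped, and RY lay above both. NLRC4 was 5.69-fold higher in RY than in WT (log2 2.48, SE 0.49, adjusted p = 0.00145) and 4.63-fold higher than in KO (log2 2.19, SE 0.48, adjusted p = 0.00272; 2.85 without KO replicate 1). WT held 3 and 6 reads and KO 7 and 3, and the KO to WT ratio of 1.23 had a 95% counting interval of 0.449 to 3.42. NLRC4 lies on chromosome 2 from 32224453 to 32265854, minus strand.

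**Figure D1:**
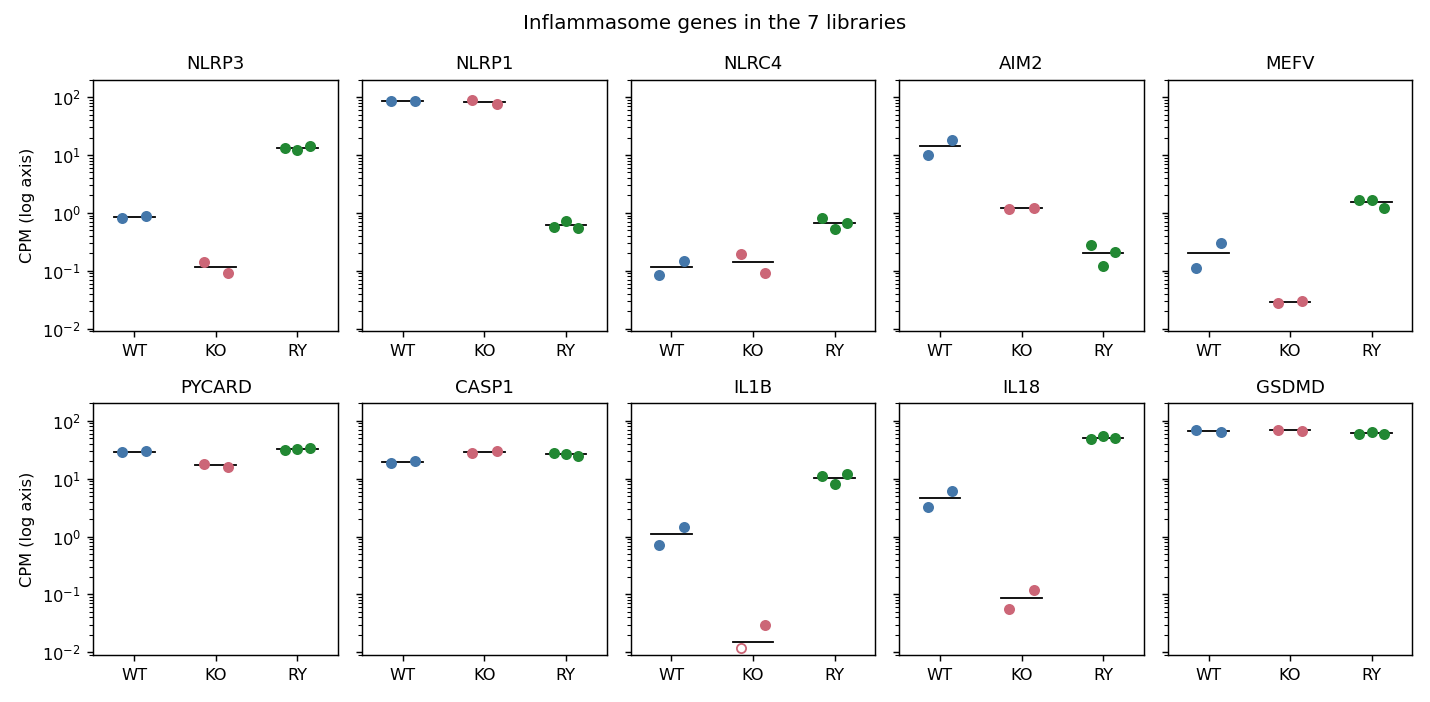
Level of each of the 10 inflammasome genes in every library, in TMM-scaled CPM on a log axis, with 1 point per library, a line at the group mean and an open point for 0 reads, for WT (n = 2), KO (n = 2) and RY (n = 3). NLRP3, MEFV, IL1B and IL18 run from lowest in KO to highest in RY, NLRP1 is below 1 CPM in RY alone, and GSDMD lies between 59.8 and 70.8 CPM throughout.

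The adaptor and the protease were called in no comparison. PYCARD stood at 29.4 and 29.6 CPM in WT, at 18.1 and 15.8 in KO, and at 31.4, 32.8 and 33.6 in RY. KO lay below both other groups without overlap, and RY lay just above WT. The KO to WT difference was -0.80 on the log2 scale (SE 0.11, adjusted p = 0.00134), under the 2-fold needed for a call. For RY against KO it was 0.94 (SE 0.11, adjusted p = 3.73e-05), also under 2-fold, but reached 1.09 when scaled by library size only and 1.04 without KO replicate 1, which are calls. For RY against WT it was 0.15 (SE 0.10, adjusted p = 0.216). PYCARD (chromosome 16, 31201485 to 31203450, minus strand) shares exon sequence with the antisense gene PYCARD-AS1, and the strand setting of the counting is not given in the sources used here.

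CASP1 stood at 18.9 and 20.4 CPM in WT, 28.1 and 30.0 in KO, and 27.9, 26.7 and 25.1 in RY. Both edited lines lay above WT without overlap. The differences from WT, 0.56 for KO (SE 0.11, adjusted p = 0.00877) and 0.43 for RY (SE 0.10, adjusted p = 0.00444) on the log2 scale, were under 2-fold and so not calls. RY and KO differed by -0.13 (SE 0.10, adjusted p = 0.280), a difference whose sign turned to 0.02 when scaled by library size only. CASP1 lies on chromosome 11 from 105025443 to 105035250, minus strand, and its neighbour CARD16 carries near-identical sequence. How the counting assigned reads between them was not tested.

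IL1B, the precursor of IL-1 beta, followed the order of NLRP3. RY libraries held 10.9, 8.25 and 12.2 CPM, WT libraries 0.721 and 1.47, and the KO libraries 0 and 1 read, or 0 and 0.0300 CPM. The groups did not overlap, and WT replicate 2 held 2.03 times the level of WT replicate 1. IL1B was 9.27-fold higher in RY than in WT (log2 3.23, SE 0.30, adjusted p = 5.30e-06), with a log2 difference of 3.84 without WT replicate 2. The WT to KO ratio was 76.8, with a 95% counting interval of 13.4 to 3068 (log2 for KO against WT -5.96, SE 1.04, adjusted p = 0.00301). That log2 difference was -5.06 without KO replicate 1, -8.41 without KO replicate 2 and -5.34 without WT replicate 2, with adjusted p of 0.0401, 0.0205 and 0.00665. The RY to KO ratio was 712, with an interval of 128 to 28138. Its log2 difference of 9.19 became 8.28 without KO replicate 1 and 11.60 without KO replicate 2. Floors and counting intervals throughout cover counting error only.

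IL18, the second cytokine precursor, was the most abundant of the genes in this pattern. It stood at 48.7, 54.8 and 50.1 CPM in RY, 3.25 and 6.01 in WT, and 0.0562 and 0.120 in KO, where it had 2 and 4 reads. The 3 groups were apart, and the WT libraries differed 1.85-fold. IL18 was 10.9-fold higher in RY than in WT (log2 3.46, SE 0.22, adjusted p = 7.54e-07) and 54.0-fold lower in KO than in WT (log2 -5.69, SE 0.51, adjusted p = 8.64e-05). RY stood 589.7-fold above KO (adjusted p = 4.95e-08). IL1B lies on chromosome 2 from 112829751 to 112836903 and IL18 on chromosome 11 from 112143251 to 112164117, both on the minus strand.

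GSDMD, the pore-forming target of caspase-1, passed no test in any comparison. It stood at 68.8 and 64.2 CPM in WT, at 70.8 and 67.5 in KO, and at 59.8, 65.1 and 60.3 in RY. The ranges of WT overlapped those of KO and of RY. Its log2 differences were 0.06 for KO against WT (SE 0.10, adjusted p = 0.779), -0.11 for RY against WT (SE 0.09, adjusted p = 0.300; 0.09 when scaled by library size only) and -0.16 for RY against KO (SE 0.09, adjusted p = 0.124).

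A gene was called where its adjusted p (Benjamini-Hochberg) lay under 0.05 and its change reached 2-fold. Over the 10 genes, KO against WT gave 4 lower (NLRP3, AIM2, IL1B and IL18) and 0 higher. Of all 18281 genes tested, 10.9% were called in this comparison, 7.21% lower and 3.68% higher. The median log2 difference was -1.76 over the 10 genes and -0.01 over all genes tested. The -1.76 is the midpoint of PYCARD (-0.80) and MEFV (-2.72), both uncalled, and is not a level at which the genes gathered. RY against WT gave 5 higher (NLRP3, NLRC4, MEFV, IL1B and IL18) and 2 lower (NLRP1 and AIM2), where 49.3% of all genes were called, 23.9% higher and 25.4% lower. The medians there were 1.46, the midpoint of NLRC4 (2.48) and CASP1 (0.43), and -0.03. RY against KO called the same 5 genes higher and the same 2 lower, with 50% of all genes called, 24.2% higher and 25.9% lower. The medians were 1.56, the midpoint of NLRC4 (2.19) and PYCARD (0.94), and -0.03. The 7 of 10 stand beside these shares of 49.3% and 50%. The 7 include NLRC4 and MEFV, which passed the filter on low counts only through the RY libraries, where they were high. Their few reads in WT and KO left little room for a call in KO against WT. The comparisons with WT share the WT libraries. The authors' deposited tables, which list genes past their own thresholds, held 4 of the 10 for KO against WT and 7 for RY against WT.

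**Figure D2:**
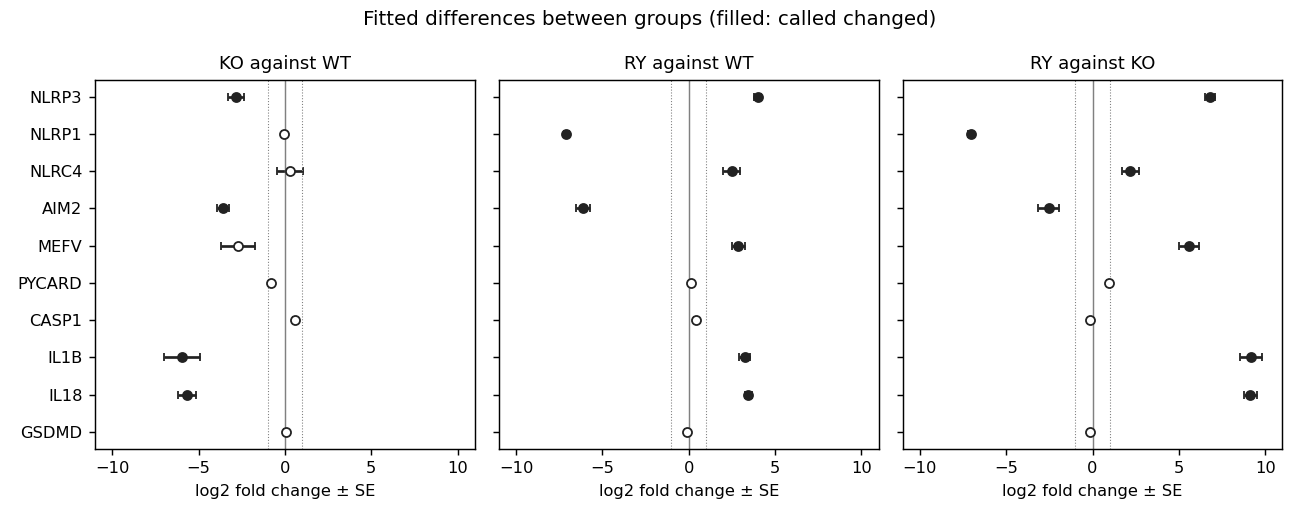
Log2 fold change of each gene with its standard error in the 3 comparisons, from edgeR over 7 libraries, with filled points for calls and dotted lines at a 2-fold change. NLRP3, IL1B and IL18 lie below 0 for KO against WT and above 0 for RY against WT, AIM2 lies below 0 in all 3, and GSDMD lies near 0.

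The WT levels of several of these genes were set against RNA of the RY type found in the WT libraries. The reference was 210 genes that averaged 20 CPM or more in RY while KO held less than 1% of that. Over them, WT replicate 1 held a median of 4.04% of the RY level (quartiles 3.08% to 5.44%). WT replicate 2 held 7.09% (quartiles 5.92% to 8.57%), 1.75 times as much. IL18 is among the 210, and the placement of genes among them uses the 209 others. NLRP3 in WT stood at 6.02% and 6.51% of its RY level in replicates 1 and 2, IL18 at 6.34% and 11.7%, IL1B at 6.90% and 14.0%, MEFV at 7.29% and 19.6%, and NLRC4 at 12.4% and 22.1%. CASP1, PYCARD and GSDMD stood at 71.3% to 111% of RY, outside the range of these reference genes.

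A share at the median, taken from the RY level, comes to 67.1% of the NLRP3 level in WT replicate 1 and 109% in replicate 2. For IL18 it comes to 63.8% and 60.4%, and for IL1B to 58.6% and 50.6%. At the quartiles of the reference genes, the NLRP3 figures run from 51.1% to 90.2% and from 91.0% to 132%. Those of IL18 run from 48.5% to 85.7% and from 50.4% to 73.0%. Those of IL1B run from 44.6% to 78.8% and from 42.3% to 61.2%. Averaged over both libraries the share comes to 88.8% of the WT level for NLRP3, 61.6% for IL18, 53.2% for IL1B, 41.4% for MEFV and 32.3% for NLRC4. It comes to 7.51% for CASP1, 6.16% for PYCARD, 5.17% for GSDMD, 0.0798% for AIM2 and 0.0399% for NLRP1. The MEFV figure divides by WT levels of 4 and 12 reads, and that of NLRC4 by 3 and 6. NLRP3, IL1B, MEFV and NLRC4 averaged under 20 CPM in RY, the minimum for a reference gene. MEFV and NLRC4 also missed the limit of under 1% of the RY level in KO. MEFV averaged 0.0290 CPM in KO and 1.52 in RY, and NLRC4 0.143 in KO, 0.116 in WT and 0.673 in RY. Less the share, NLRP3 in WT is 0.26 and -0.08 CPM, against 0.115 in KO. IL18 is 1.18 and 2.38 CPM, against 0.0881 in KO, and IL1B is 0.299 and 0.724, against 0.0150. Of the reference genes, 81.8% in replicate 1 and 34.9% in replicate 2 lay at a lower percent of RY than NLRP3. For IL1B these were 86.1% and 93.3%, and for IL18 83.7% and 90.4%, so both lay inside the spread of the reference genes.

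Across all genes tested, 1544 had a share of at least 50% of their WT level, among them NLRP3, IL1B and IL18. With the lower quartile as the share, IL1B in both WT libraries and IL18 in replicate 1 fall under that limit. The 1544 include reference genes, for which a share near the WT level follows from how they were chosen. Among all 1318 genes lower in KO, 450 had a share of at least 50%, beside 3 of the 4 members lower there. Between the WT libraries, replicate 2 to replicate 1, the ratio was 1.080 for NLRP3, 1.85 for IL18, 2.03 for IL1B and 2.69 for MEFV, beside 1.75 for the share. The part of such RNA in the KO to WT differences of NLRP3, IL1B and IL18 was not tested. In bulk samples, fewer cells of a type and less RNA per cell cannot be told apart. The RY to KO fold changes set RY against KO levels, while the WT libraries entered the shared estimate of spread. With only the RY and KO libraries fitted, 7 of the 10 genes were called in that comparison.

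**Figure D3:**
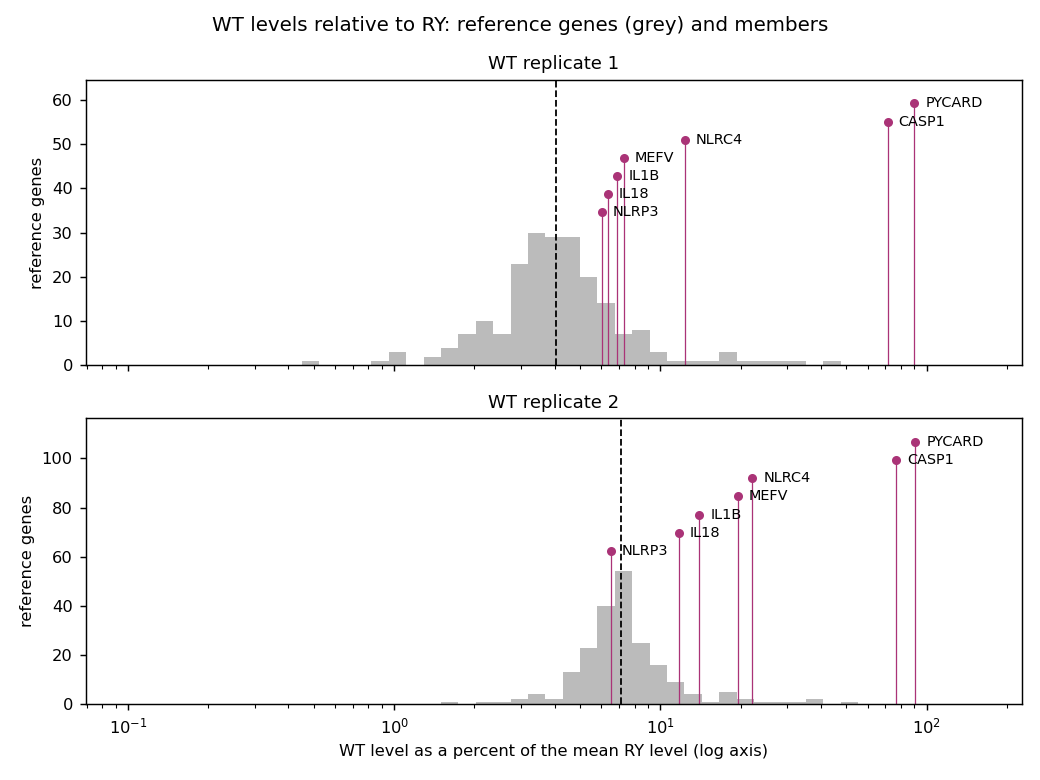
Level in WT replicates 1 and 2 of the 7 genes NLRP3, IL18, IL1B, MEFV, NLRC4, CASP1 and PYCARD as a percent of its mean RY level, on a log axis, over a histogram of the reference genes in each WT library with their median dashed. NLRP3, at 6.02% and 6.51%, and IL18 and IL1B lie within the spread of the reference genes, whereas CASP1 and PYCARD lie at 71.3% to 90.6%.

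Levels were compared between genes on a per-length scale, TPM, which divides reads by gene length, computed over the union of exons. TPM carries no TMM scaling, so it is read within a group. From WT to RY, PYCARD went from 49.2 to 74.6 TPM, while its TMM-scaled ratio was 1.11. In WT, PYCARD led at 49.2 TPM, followed by GSDMD at 36.1, AIM2 at 19.4, NLRP1 at 18.5, CASP1 at 14.8 and IL18 at 4.86. IL1B stood at 0.973, NLRP3 at 0.488, MEFV at 0.117 and NLRC4 at 0.0884. In this order AIM2 and NLRP1, and MEFV and NLRC4, overlapped between libraries. In KO, GSDMD led at 38.7 TPM before PYCARD at 29.2, CASP1 at 22.5 and NLRP1 at 18.4, AIM2 stood at 1.70, and the other 5 genes were lower. In RY, PYCARD at 74.6 and IL18 at 74.1 TPM overlapped at the top, with GSDMD at 45.9 and CASP1 at 27.4. IL1B at 12.8 came next and NLRP3 at 10.7 overlapped it, with MEFV at 1.21, NLRC4 at 0.707, AIM2 at 0.384 and NLRP1 at 0.182. The only sensors in this order are NLRP3, NLRP1, NLRC4, AIM2 and MEFV, and further sensors such as IFI16 and CARD8 were not ranked by length. Among those in the order, the best represented by length was AIM2 or NLRP1 in WT, NLRP1 in KO and NLRP3 in RY. PYCARD, CASP1 and GSDMD were present in every group.

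**Figure D4:**
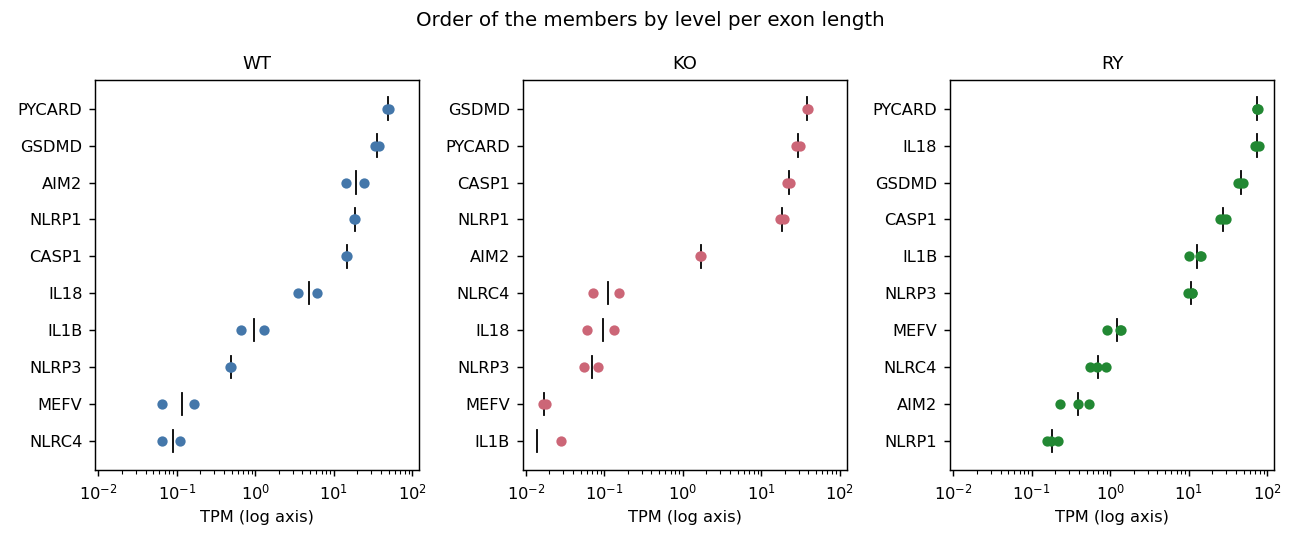
Per-length level (TPM, log axis) of the 10 genes in WT, KO and RY, ordered by the group mean (line), with 1 point per library and the IL1B value of 0 in KO not drawn. PYCARD, GSDMD and CASP1 stay above 10 TPM in each group, while NLRP1 stands at 18.5 TPM in WT and 0.182 in RY and IL18 stands at 4.86 in WT and 74.1 in RY. TPM carries no TMM scaling, and the tests between groups used TMM-scaled counts.

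The surrounding pathway was read from 7 lists of 99 other genes, of which 76 were tested. KO against WT called 1 higher and 15 lower, beside 3.68% and 7.21% of all genes tested. Of the 15, 8 had an RY-type share of at least 50% of their WT level, beside 450 of all 1318 genes lower in KO. The 8, at 58.1% to 135%, were NLRC3, GBP5, PSTPIP1, PTPN22, IRAK3, IL18R1, IL18RAP and TLR2. The others of the 15 lay at 0% to 36.1%. All of the 8 but PTPN22 and TLR2 are reference genes, for which such a share follows from how they were chosen. The part of such RNA in these falls was not tested. RY against WT called 25 higher and 16 lower, beside 23.9% and 25.4% of all genes, and RY against KO 28 higher and 16 lower, beside 24.2% and 25.9%. The shares of all genes in each direction apply to the counts of every list that follows. Among 13 tested further sensors, 5 fell in KO. NLRP7 stood at 24.0 and 18.3 CPM in WT, 4.27 and 3.15 in KO, and 0.0750, 0.0241 and 0 in RY, which is 5.63-fold lower in KO than in WT. NOD2, a sensor of bacterial wall peptides, was 4.17-fold lower in KO (adjusted p = 0.000148). NLRC3, a dampener of T cell and innate signalling, fell 28.0-fold in KO and rose 18.1-fold in RY against WT. NLRP2 fell 62.5-fold in RY against WT, and CARD8, a sensor of the same peptidase inhibition as NLRP1, was 14.8-fold higher in RY than in KO.

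Of 16 tested partners of NLRP3, 4 fell in KO, 1 of them HDAC6 itself, and 5 rose and 1 fell in RY against WT, where 49.3% of all genes were called. PSTPIP1, which binds pyrin, stood at 2.33 and 4.22 CPM in WT, 0.0843 and 0.120 in KO, and 46.2, 48.2 and 48.7 in RY. GBP5, a guanylate-binding protein that promotes NLRP3 assembly, fell 10.3-fold in KO and rose 18.2-fold in RY against WT. PTPN22, a phosphatase that acts on NLRP3, was 12.5-fold higher in RY than in WT. NEK7, the kinase that NLRP3 requires, was called in no comparison, at 47.4 and 66.3 CPM in WT, 60.8 and 52.8 in KO and 28.9, 27.1 and 30.0 in RY, and is named here after its values were seen. Its RY to WT difference of -0.99 on the log2 scale (SE 0.14, adjusted p = 0.000209) lay just under the 2-fold limit, with a ratio of pooled reads of 2.01.

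Of 11 tested caspases and caspase-1 regulators, CARD17P was called higher in KO and CARD18, a caspase-1 inhibitor, lower. CARD18 stood at 4.38 and 2.43 CPM in WT, and had 2 and 0 reads in KO and 0 in the 3 RY libraries, at least 128-fold lower in RY than in WT against a floor of 3 reads over the group. The WT to KO ratio of CARD18 was 115.6, with a counting interval of 31.7 to 959.8 from 2 reads in KO. CARD17P stood at 0.0832 and 0.0248 CPM in WT and 0.815 and 0.570 in KO, and passed the filter on low counts only through the KO libraries. On the log2 scale CARD17P was 3.65 higher in KO (4.63 without WT replicate 1, 3.01 without WT replicate 2), and CARD18 was at -6.71 (-9.99 without KO replicate 1, -5.81 without KO replicate 2). CASP8, the apoptotic and inflammatory caspase, was 2.98-fold lower in RY than in WT. SERPINB1, an inhibitor of granule proteases, was 2.63-fold higher in RY than in KO (adjusted p = 4.50e-05), and its 2.00-fold rise against WT lay at the limit of a call. Of 6 tested gasdermin and rupture genes, none was called in KO against WT. NINJ1, which ruptures the membrane after pore formation, fell 4.14-fold in RY against WT, and CHMP3, a repair factor, rose 3.35-fold. GSDMC fell in RY against WT from 0.832 and 0.546 CPM to 1 read over 3 libraries, a ratio of 78.1 with a counting interval of 13.4 to 3145, and its log2 difference of -5.83 became -7.70 without RY replicate 3, which held the read.

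All 3 tested ligands and antagonists of the IL-1 family were called higher in RY and none in KO. IL1RN and IL1A passed the filter on low counts only through the RY libraries. They averaged 0.0650 and 0.118 CPM in WT and 0.0141 and 0 in KO, which left little room for a call between those groups. IL18BP, the secreted antagonist of IL-18, stood at 5.58 and 5.36 CPM in WT, 6.18 and 4.47 in KO, and 18.4, 19.5 and 18.8 in RY, a 3.46-fold rise. IL1RN, the receptor antagonist, rose 14.9-fold against WT to between 0.877 and 1.050 CPM, and IL1A rose 6.66-fold. Of 11 tested receptors and signalling genes, 3 fell in KO (7.21% of all genes did) and 7 rose in RY against WT (23.9% of all genes did). The receptor chain IL18R1 stood at 4.41 and 7.70 CPM in WT, 0 and 0.330 in KO and 128, 99.1 and 118 in RY. Its partner IL18RAP stood at 3.52 and 5.86, 0 and 0.210, and 90.1, 94.7 and 89.6 CPM in the same order. In KO the reads of both came from replicate 2. IL18R1 differed from WT by -4.19 on the log2 scale without KO replicate 1 and by -10.86 without replicate 2, and IL18RAP by -4.47 and -10.49. IRAK3, a brake on IL-1 and Toll-like receptor signals, fell 56.5-fold in KO and rose 23.8-fold in RY against WT, and IRAK4, the kinase that carries these signals, rose 4.74-fold in RY.

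Priming and ion flux genes numbered 16, with 2 lower in KO and 4 higher and 5 lower in RY against WT, the last set beside 49.3% of all genes called. TLR2, a receptor for bacterial lipopeptides, stood at 0.943 and 1.12 CPM in WT, 0 and 0.0300 in KO, and 9.25, 11.7 and 11.3 in RY. LY96, which presents lipopolysaccharide to TLR4, had 19.6 and 23.5 CPM in WT, 23.2 and 22.2 in KO, and 0.0750, 0 and 0 in RY. TRPM2, a calcium channel, rose 5.04-fold in RY against WT, and TNFRSF1A, a receptor of TNF, 3.97-fold. CLIC4, a chloride channel protein, was called 2.10-fold lower in KO (adjusted p = 0.0388), but the call ended under 10 of 16 alternatives, with an adjusted p of up to 0.205, and the log2 difference was -0.45 without WT replicate 2. Myeloid markers moved with the genes that were high in RY and low in KO: 12 of 16 tested rose and 1 fell in RY against WT, and 6 fell in KO. Part of the 12, named above, passed the filter on low counts only through the RY libraries. All 6 that fell in KO had an RY-type share of at least 50% of their WT level. MPO, AIF1, CSF3R, ITGAM and CEBPA are reference genes, chosen for being high in RY and near absent in KO. The likeness therefore follows in part from how genes were chosen. The part of these markers in these results was not tested.

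**Figure D5:**
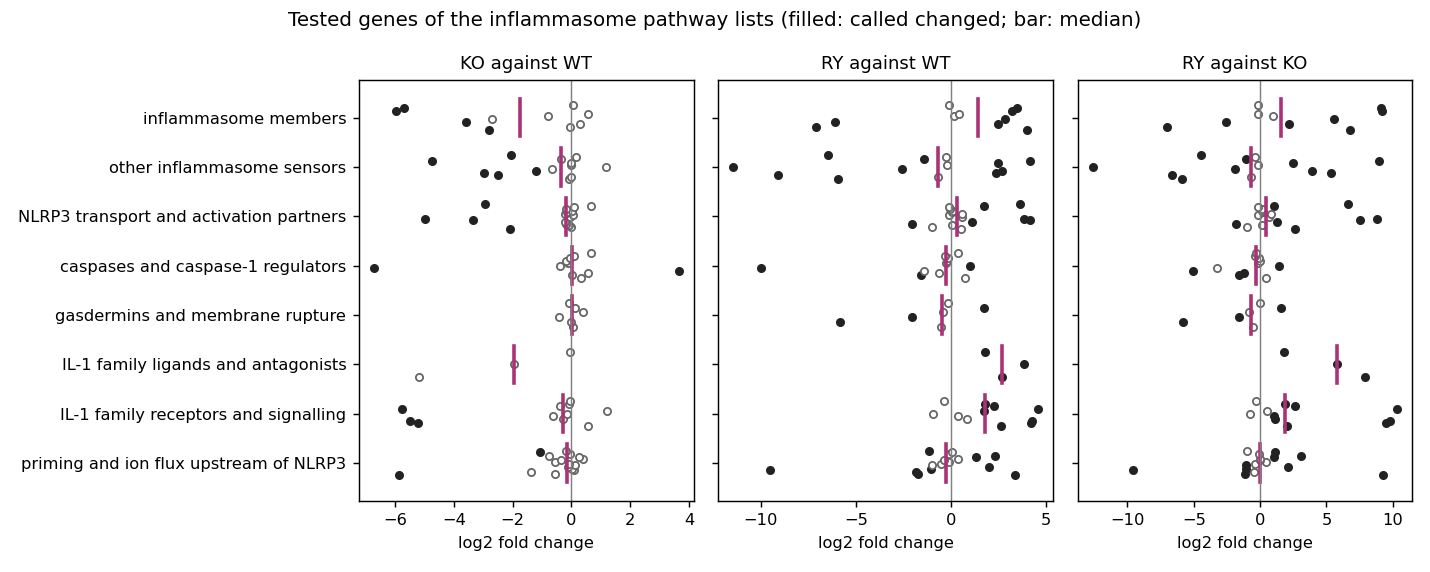
Log2 fold change of each tested gene of the 10 members and of the 7 pathway lists in the 3 comparisons, from edgeR, with filled points for calls and a bar for the median of a list. KO against WT has 1 higher and 15 lower over the 99 listed genes, whereas the RY comparisons have calls in both directions.

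Over the 7 libraries, the tested genes whose centred log2 CPM lay nearest to that of NLRP3 were PROK2, STAP1 and LINC01671, with root mean square differences of 0.158, 0.163 and 0.175. PROK2 encodes a secreted prokineticin and STAP1 a signalling adaptor. STAP1 stood at 1.55 and 1.79 CPM in WT, 0.337 and 0.270 in KO, and 24.3, 19.8 and 23.4 in RY. PROK2 had 0 reads in both KO libraries and LINC01671 likewise. The likeness rests on the contrast among 3 groups and is a description.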

How the data were processed

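RNA was counted in 7 bulk libraries, 2 WT, 2 KO and 3 RY, grouped by sample title. Raw counts of reads per Ensembl gene, as the authors deposited them, were used. GRCh38, edgeR 1.34.1, HTSeq 0.9.1, STAR 2.7.4 and FastQC appear, without roles or order, in the submitters' processing notes; annotation release and strand setting are not given in the sources used here. The authors' deposited comparison tables hold log2 fold changes, p-values and F scores, and served only to see which genes they list. The deposited normalized table was not used.

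Of 60666 identifiers, 60437 had a symbol and 58420 a position in GENCODE release 29. Genes were tested with edgeR 4.0.16 (quasi-likelihood, TMM, filterByExpr with a minimum count of 10) in R 4.3.3, all 7 libraries in 1 fit with a term per group. The filter left 18281 genes, and p-values were adjusted over all of them. DESeq2 1.42.0 was an alternative. A call needed an adjusted p under 0.05 and a 2-fold change. CPM values use TMM-scaled library sizes, given as mean ± SD, and folds are ratios of pooled reads with exact 95% binomial counting intervals. The floor of 3 reads over a group came to 0.0393 CPM in WT, 0.0435 in KO and 0.0262 in RY. A chi-square per gene within groups of 7.88 to 77.7 showed that no library repeated another within sampling noise. The 77.7 was the WT pair. Between WT and KO libraries it ran from 63.9 (WT replicate 1 and KO replicate 2) to 108.1. By this measure the WT libraries differed from each other more than WT replicate 1 did from KO replicate 2. The fit was tested on simulated data.

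The members and lists were chosen with earlier results of these data known. The text names HDAC6, the 10 members, up to 3 called genes of each pathway list per comparison by adjusted p, markers by mean CPM, and the 3 genes nearest to NLRP3. Libraries left out in turn, other scalings and filters, and a replicate block were the alternatives.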

Additional observations from a re-analysis of the deposited data

How the results depend on the processing

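The counts of the 10 genes called (4 for KO against WT, 7 for each RY comparison) stayed within 1.5 times of these values under every alternative run but 1. That was the removal of genes with a share of at least 50% of their WT level, chosen after seeing the data, which left 1 for KO against WT because the removal itself takes out 3 of the 4, NLRP3, IL1B and IL18. It therefore shows nothing on whether their differences depend on such RNA. Leaving out 1 library at a time gave 4 to 5, 7 to 7 and 7 to 8, and 1480 to 2327, 8621 to 9560 and 8801 to 9808 called genes in all, for KO against WT, RY against WT and RY against KO. The sign turned for 4 uncalled differences: scaled by library size only, CASP1 in RY against KO became 0.0223 and GSDMD in RY against WT 0.0874, a scaling that moved the median of all genes by 0.19 for RY against WT. Leaving out a library moved NLRC4 in KO against WT between -0.377 and 0.773 and NLRP1 between -0.166 and 0.0774. The cause was not tested. Replicate numbers did not pair the samples (deviations of same-numbered WT and KO libraries correlated at -0.30). With the replicate block 1603, 8708 and 8835 genes were called and 4, 7 and 7 of the 10, and with WT and KO numbers crossed, chosen after seeing the data, 2204 genes and 4 of the 10. The median share ran from 3.31% to 4.07% in WT replicate 1 and from 6.28% to 7.16% in replicate 2. Depth limits NLRP3, NLRC4, MEFV, IL1B and IL18, which had 0 to 7 reads in each KO library.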
